A study of Mus musculus with 12 samples.

Results

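The neurotrophins are secreted proteins that keep neurons alive and shape their synapses, and BDNF is the family member best known for its part in hippocampal plasticity and memory. Each neurotrophin binds a Trk receptor tyrosine kinase, BDNF binding TrkB and NT-3 binding TrkC, and all of them, also as uncleaved precursors, can bind the p75 receptor. Sortilin takes part in sorting the precursors and acts as a partner of p75, and VGF is a neuropeptide precursor whose gene is induced by neurotrophins. The 7 genes described here were named by these roles and not by their values: the ligands Bdnf and Ntf3, the receptors Ntrk2 (TrkB), Ntrk3 (TrkC) and Ngfr (p75), Sort1 (sortilin) and Vgf. Earlier results of these data were known when the genes were chosen. The genes made up 7 of 24209 gene symbols and 23 of 32850 RefSeq transcript entries in the count tables.

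RNA-seq was run on hippocampal tissue from 12 adult male C57BL/6 mice, in 2 experiments of 6 mice. Each mouse had received an AAV5 vector in the hippocampus of each hemisphere, and the vector's synapsin promoter limits expression to neurons. In the miR-9 experiment 3 mice carried GFP-miR-9sp, a GFP transcript with a sponge of binding sites that sequesters miR-9, and 3 carried GFP alone (GFP Ctrl). In the miR-34 experiment 3 mice carried GFP-miR-34sp, a sponge for the miR-34 family, and 3 carried GFP alone. All 4 groups therefore shared the vector, its promoter and GFP. Within each experiment the groups differed in the sponge, while the 2 GFP Ctrl groups differed in the experiment. The titles of the 3 GFP Ctrl mice of the miR-9 experiment named no experiment; they were the GFP Ctrl mice left once those titled for miR-34 were set apart. The labels give the cell type as hippocampal neurons, whereas the source was hippocampal tissue, so that cells without the sponge also gave RNA, and fewer cells of a type and less RNA per cell cannot be told apart.

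Total counts ranged from 17279620 to 24428477 in the miR-9 experiment and from 11029604 to 16934133 in the miR-34 experiment. Markers of neurons, astrocytes, oligodendrocytes and microglia were all present in every group. Markers of choroid plexus, an epithelium beside the hippocampus, differed most between mice: their summed level ranged from 66.4 to 925 CPM (counts scaled to the same library total in every mouse, the scale used throughout) in the miR-9 experiment, where the groups overlapped. For the miR-34 experiment it was 84.4 to 169 in GFP-miR-34sp mice and 673 to 2444 in GFP Ctrl mice, with no overlap.

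What the counts of these genes contain decided what could be compared. Of the 23 entries, 10 had a mean count above 10 and 6 had no read in any mouse. Reads that fell on sequence shared by several entries of a gene appeared to be largely missing, which is an inference from the tables: of the 13378 entries of genes with 2 or more entries, 57.7% had no read, against 17.9% of the 19472 entries of genes with 1 entry. On that inference a gene's count, the sum over its entries, is close to a sum of the reads on sequence held by a single entry. Ngfr (NM_033217) and Vgf (NM_001039385) had 1 entry each, while the counts of Bdnf, Ntf3, Ntrk2, Ntrk3 and Sort1 are read here as standing for parts of their transcripts.

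The sponges act on miRNAs that pair with target RNAs through bases 2 to 8, the seed. The mature sequences from RefSeq are shown because the matches below derive from them, with the seed in capitals. miR-34a-5p and miR-34b-5p share 1 seed, and miR-34c-5p is named only.
mmu-miR-9-5p: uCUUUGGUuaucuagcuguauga
mmu-miR-34a-5p: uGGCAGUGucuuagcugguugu
mmu-miR-34b-5p: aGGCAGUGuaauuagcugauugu

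Matches to bases 2 to 8 were sought in the longest annotated 3' UTR of each gene (GENCODE on mm9). A miR-9 match was present in Ntrk2 and Sort1, that is in 2 of the 7 genes (28.6%), against 11.4% of 19915 genes of the annotation. A miR-34 match was present in Bdnf, Ntrk2 and Sort1, in 3 of 7 (42.9%), against 14% of all genes. Ntf3, Ntrk3, Ngfr and Vgf held neither. These UTRs differ in length, from 306 bases in Ntrk3 to 5617 in Ntrk2, and a match is a description of the sequence only. The matched bases are in capitals, within 30 bases of the plus strand of mm9.
Ntrk2 with miR-9, chr13:59232172-59232201: atacaggattacACCAAAGggctgtactga
Sort1 with miR-9, chr3:108163511-108163540: ttttggaacaaaACCAAAGtttaagatttg
Bdnf with miR-34, chr2:109565064-109565093: atgctcacactcCACTGCCcatgatgtatc
Bdnf with miR-34, chr2:109565469-109565498: agcagggatccaCACTGCCattgaaatagg
Ntrk2 with miR-34, chr13:59233814-59233843: ttttgcaaatggCACTGCCagcagtacctg
Sort1 with miR-34, chr3:108163009-108163038: agccttggacccCACTGCCtctgagtctac

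None of the 7 genes passed the test of a difference between sponge and GFP Ctrl mice in either experiment after adjustment over all genes tested. In the miR-9 experiment, 6 of the 7 had a mean scaled count above 10 and were tested. The count of members with an adjusted p under 0.05 in edgeR was 0, as it was for all 13045 genes (0%), and DESeq2 also called 0 members. At an unadjusted p under 0.05 edgeR and DESeq2 each had 0 of 6, against 4.73% of all genes in edgeR and 290 genes in DESeq2. The sponge and GFP Ctrl groups were apart without overlap for 0 of 6, against 10.2% of all genes. The median log2 difference of the 6 was -0.01, and 3 were above and 3 below 0.

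With the miR-34 sponge, edgeR and DESeq2 again called 0 of 6 members at an adjusted p under 0.05, where edgeR called 0.064% of 12492 genes. Of all 12492 genes, 6.43% in edgeR and 384 in DESeq2 had an unadjusted p under 0.05. Among the 6 members both tools had 2, Ntrk3 and Ngfr. The same 2 genes were those whose groups did not overlap, 2 of 6 against 11.6% of all genes. The median log2 difference of the 6 was -0.06, with 2 above and 4 below 0. The criterion that the study used was an unadjusted p under 0.05 in an unpaired parametric test, with a ratio above 1.2 or below 0.833. The test was run here on scaled counts with equal variances. Under this criterion 0 of 6 members passed in each experiment, against 1.44% of genes in the miR-9 and 2% in the miR-34 experiment. Run here, it called more genes in each experiment than the study reported, and the cause was not tested. By the study's test 1 of 6, Ntrk3 in the miR-34 experiment, had an unadjusted p under 0.05, with a ratio of 1.12, and Ngfr did not.

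**Figure D1:**
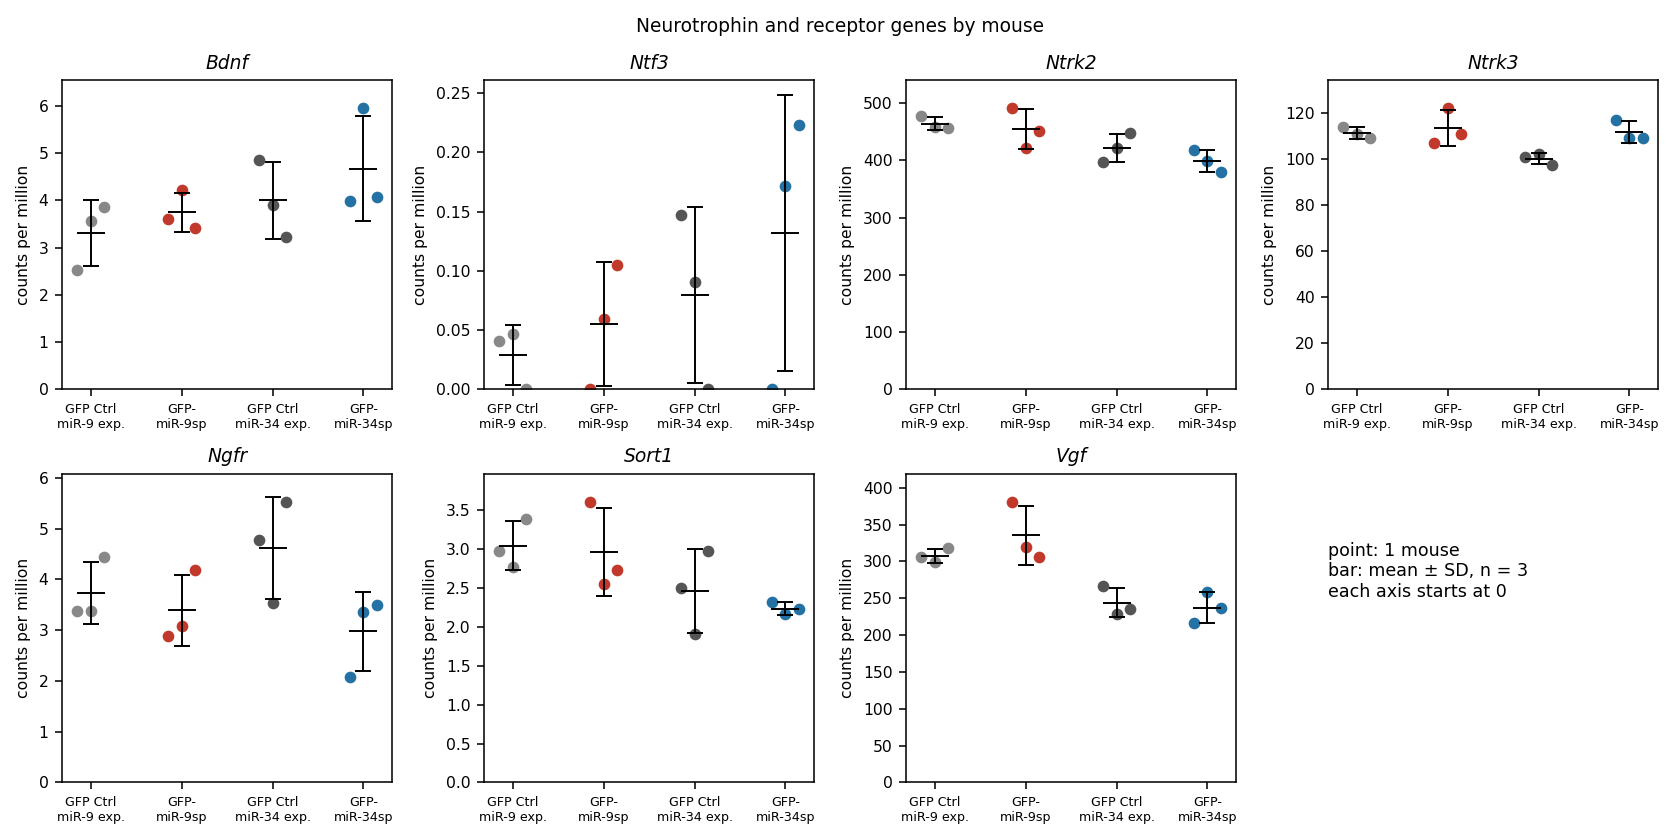
CPM (vertical axes, each from 0) of the 7 genes in every mouse, for the 4 groups along the horizontal axes. Points are mice and black bars give the mean ± SD of 3. Ntrk3 was higher and Ngfr lower in every GFP-miR-34sp mouse than in every GFP Ctrl mouse of that experiment, and in all other comparisons sponge and GFP Ctrl mice overlapped.

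Bdnf is transcribed from several promoters, each of which splices its own first exon to 1 shared coding exon, and neuronal activity is known to act strongly on exons I and IV. The 11 Bdnf entries could be placed on mm9 chromosome 2 by their lengths, 10 by an exact match and the exon V entry by the only RefSeq start that remained. They use 9 starts, exons I to IXa. The shared coding exon, chr2:109563539-109567200, is 3662 bases long and had no entry of its own. A Bdnf count is thus read here as the reads on first exons, 758 over the 12 mice, of which 714 (94.2%) lay on exons I, IV and VI.

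Exon VI (NM_001048142) had the most reads, 333 in all and 18 to 39 per mouse. Exon IV (NM_001048141) had 226, 10 to 27 per mouse, and exon I (NM_007540) had 155, 8 to 25 per mouse. Per 100 bases held by no other entry, the reads over all mice were 96 for exon VI, 66.7 for exon IV and 24.2 for exon I.

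Exon II had few reads but also few bases on which it could be counted. Its entry with the longest exon (NM_001048139) had 14 reads on 83 bases of its own, which is 16.9 per 100 bases beside the 24.2 of exon I, and the 2 shorter exon II entries (NM_001285416 and NM_001285418) have no base of their own and had no read. The remaining starts were lowest: exons III, V, VII, VIII and IXa had 7, 1, 3, 7 and 12 reads in all, which is 1.23 to 3.63 per 100 bases.

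The 250 bases in front of exons I and IV (RefSeq promoter table, located on mm9) are shown because these are the activity-regulated starts. Capitals mark CGTCA, the core of a cAMP response element, which was sought on both strands (CGTCA or TGACG). It was present once in front of exon IV, 35 bases before the start, and not within 250 bases of exons I, III, V, VII, VIII or IXa, the other Bdnf starts of that table. Of all 32851 promoters of the table, 17.8% held it. Only this exact sequence was sought, so a variant cAMP response element would be missed, also in front of exon I.
Bdnf exon I, chr2:109514607-109514856: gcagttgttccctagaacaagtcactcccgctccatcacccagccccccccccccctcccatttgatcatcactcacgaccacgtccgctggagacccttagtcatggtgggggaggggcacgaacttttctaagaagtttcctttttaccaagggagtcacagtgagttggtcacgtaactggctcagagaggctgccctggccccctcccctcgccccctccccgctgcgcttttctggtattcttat
Bdnf exon IV, chr2:109532343-109532592: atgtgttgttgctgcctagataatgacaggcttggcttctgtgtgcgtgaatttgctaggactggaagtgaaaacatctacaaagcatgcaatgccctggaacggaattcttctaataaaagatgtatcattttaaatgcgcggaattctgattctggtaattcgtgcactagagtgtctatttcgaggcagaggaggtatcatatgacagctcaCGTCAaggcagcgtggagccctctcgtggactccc

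**Figure D2:**
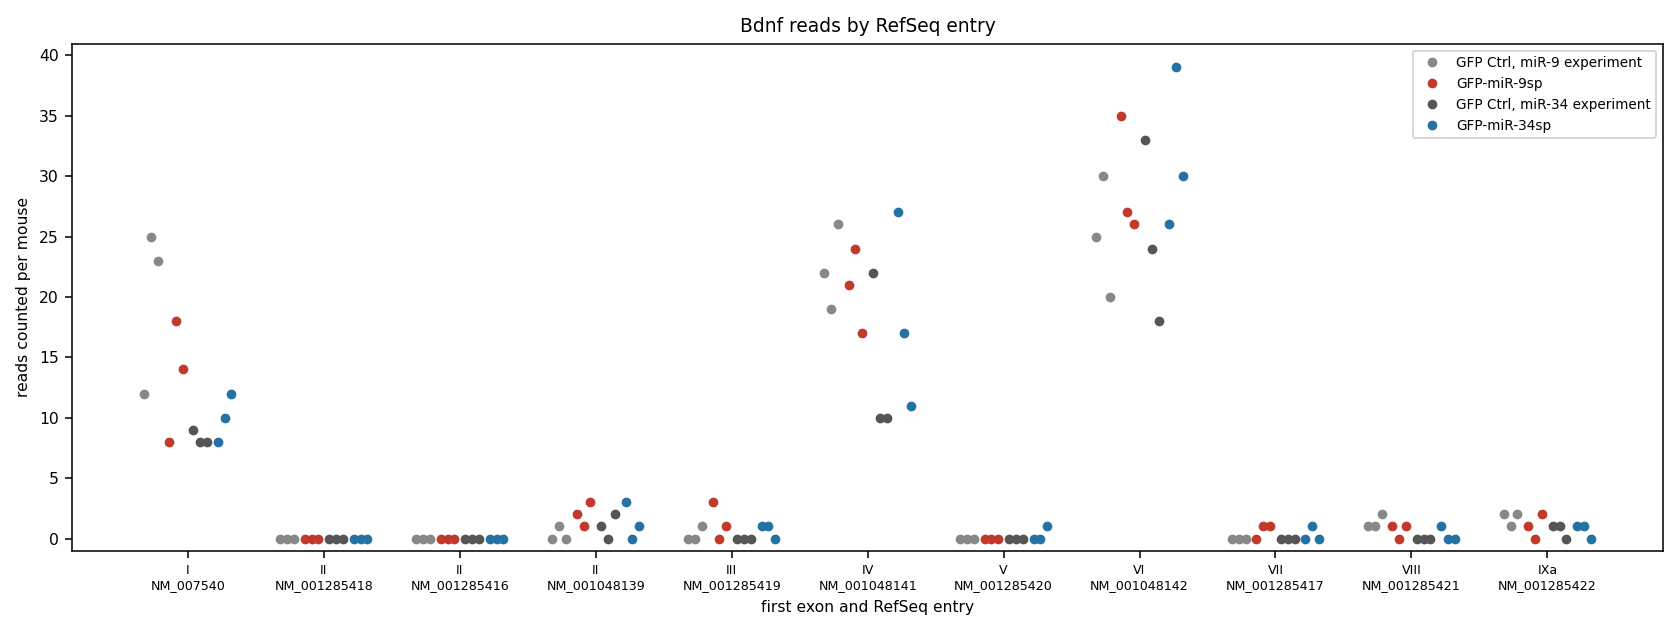
Reads counted per mouse (vertical axis) for each Bdnf RefSeq entry, ordered by first exon along the horizontal axis. Each point is 1 mouse, coloured by group. Most counted reads lay on exons I, IV and VI, and the groups of each experiment overlapped at all 3.

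The summed Bdnf level was 3.61, 4.21 and 3.41 CPM in GFP-miR-9sp mice and 2.52, 3.56 and 3.86 in their GFP Ctrl mice. The miR-34 values were 3.98, 5.95 and 4.08 in sponge mice and 4.85, 3.91 and 3.23 in GFP Ctrl mice. The groups overlapped in both. The fold was 1.13 (95% interval 0.854 to 1.51, edgeR adjusted p = 0.97) in the miR-9 and 1.14 (0.83 to 1.58, adjusted p = 0.938) in the miR-34 experiment, so that a change of 1.2-fold could not be told from none.

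Among first exons above the count limit, the largest difference was at exon VI in the miR-9 experiment. Its level was 1.78, 1.6 and 1.36 CPM in sponge mice and 1.02, 1.39 and 1.04 in GFP Ctrl mice, so that 1 GFP Ctrl mouse lay above the lowest sponge mouse. The fold was 1.37 (95% interval 0.982 to 1.92; edgeR adjusted p = 0.968). The unadjusted p, above 0.05 with all mice, was under it when GFP-miR-9sp mouse 9 or GFP Ctrl mouse 2 was left out, with no adjusted p under 0.05.

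At exon IV the folds were 1.08 (0.713 to 1.65) in the miR-9 and 1.14 (0.667 to 1.94) in the miR-34 experiment. At exon I the fold was 0.781 (0.412 to 1.48) in the miR-9 experiment, and in the miR-34 experiment, with 8 to 12 reads per mouse, it was below the count limit. Exon VI in the miR-34 experiment had a fold of 1.12 (0.71 to 1.77). Every one of these intervals included 1. The exon II entry NM_001048139, below the count limit, had 2, 1 and 3 reads in GFP-miR-9sp and 0, 1 and 0 in GFP Ctrl mice, or 0.106 ± 0.0491 against 0.0154 ± 0.0267 CPM (SD, n = 3). Every sponge mouse lay above in CPM. The nearest mice, at 0.0594 (sponge mouse 23) and 0.0462 (GFP Ctrl mouse 2), had 1 read each and were apart by library size alone. This entry had 3, 0 and 1 against 1, 0 and 2 reads in the miR-34 experiment, where the groups overlapped.

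Ntf3, which encodes NT-3, had very few counted reads. Of its 3 entries only NM_001164035 had reads: 0, 1 and 2 in GFP-miR-9sp mice against 1, 1 and 0 in GFP Ctrl, and 0, 2 and 3 in GFP-miR-34sp mice against 2, 1 and 0. The mean was under 10, so that Ntf3 was outside the main test, and the groups overlapped in both experiments. Fitted without a count limit, the log2 differences were 0.71 (SE 1.3, edgeR adjusted p = 0.962) and 0.5 (SE 1.17, adjusted p = 0.968). A count of 3 corresponds here to 1.23e-05 to 2.72e-05% of a library, so no difference was detectable from so few reads. Reads on sequence shared by its 3 entries appear to be missing. The low count thus describes the counting as well as the RNA, and no level of NT-3 RNA can be read from it.

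Ntrk2 had the most reads of the receptors, and almost all of its reads belonged to NM_008745, the entry of the truncated receptor that lacks the kinase and is made chiefly by astrocytes. This entry had 4588 to 11690 reads per mouse. NM_001025074, an entry of the full-length kinase form, had 19 to 53, and NM_001282961, a second full-length entry whose length differs by 33 bases, had none. The 2 full-length entries share nearly all of their sequence, so their low count describes the counting as well as the RNA, and a ratio of the forms cannot be read from it.

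The truncated entry stood at 490, 421 and 451 CPM in GFP-miR-9sp mice and at 476, 456 and 455 in their GFP Ctrl mice. In GFP-miR-34sp mice it was 416, 396 and 378, and in GFP Ctrl 396, 420 and 445. The groups overlapped in both experiments. Summed over entries, the fold was 0.981 (95% interval 0.902 to 1.07, edgeR adjusted p = 0.978) with the miR-9 sponge and 0.945 (0.877 to 1.02, adjusted p = 0.863) with the miR-34 sponge. In the latter the unadjusted p fell under 0.05 without GFP Ctrl mouse 10, with no adjusted p under 0.05. The gene model with the truncated end (a 3' UTR of 4970 bases) held 2 miR-34 matches and no miR-9 match.

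For the full-length entry the values were 1.57, 1.72 and 1.83 CPM against 2.16, 1.99 and 1.57 in the miR-9 experiment. They were 2.14, 2.85 and 1.63 against 2.57, 2.73 and 1.62 in the miR-34 experiment. Sponge and GFP Ctrl mice overlapped, with folds of 0.891 (0.663 to 1.2) and 0.946 (0.63 to 1.42).

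Ntrk3, the NT-3 receptor, gave the smallest p of the 7 genes. After the miR-34 sponge it stood at 117, 109 and 109 CPM in sponge mice and at 101, 102 and 97.3 in GFP Ctrl mice, every sponge mouse above every GFP Ctrl mouse. The fold was 1.12 (95% interval 1.04 to 1.2; log2 difference 0.16, SE 0.05), with an adjusted p of 0.49 in edgeR. Leaving out each mouse in turn kept the log2 difference between 0.13 and 0.18.

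Both Ntrk3 entries lay in the same direction. NM_182809, with 836 to 2061 reads per mouse, was at 87.9, 81.1 and 84 CPM in GFP-miR-34sp and 77.4, 77.5 and 71.1 in GFP Ctrl mice, without overlap. Its fold was 1.12 (1.04 to 1.21, edgeR adjusted p = 0.572). NM_008746, with 271 to 747 reads, was at 29.4, 28 and 25.1 against 23.4, 24.6 and 26.2, where the groups overlapped, with a fold of 1.12 (edgeR adjusted p = 0.817).

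With the miR-9 sponge Ntrk3 was at 107, 122 and 111 CPM and in GFP Ctrl at 114, 111 and 109. The fold was 1.01 (0.935 to 1.09, edgeR adjusted p = 0.984). The 2 sponge effects were tested against each other in all 12 mice. They differed by -0.15 on the log2 scale (miR-9 minus miR-34, SE 0.07, edgeR adjusted p = 0.795). Scaled within each experiment, GFP Ctrl levels themselves were 112 ± 2.45 in the miR-9 and 100 ± 2.48 in the miR-34 experiment (SD, n = 3).

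Ngfr, the p75 receptor gene, had 35 to 85 reads per mouse. In the miR-34 experiment it was at 2.08, 3.36 and 3.49 CPM in sponge mice and at 4.78, 3.54 and 5.53 in GFP Ctrl mice. The groups did not overlap, but the highest sponge mouse and the lowest GFP Ctrl mouse, 3.49 and 3.54, rested on 47 and 39 reads. The fold was 0.631 (95% interval 0.442 to 0.9; log2 difference -0.66, SE 0.23), with an adjusted p of 0.653 in edgeR. The log2 difference ranged from -0.81 to -0.43 with a mouse left out, and the unadjusted p was no longer under 0.05 without GFP Ctrl mouse 8 or without GFP-miR-34sp mouse 13.

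In the miR-9 experiment Ngfr was at 2.89, 3.09 and 4.19 CPM in sponge mice and 3.38, 3.37 and 4.44 in GFP Ctrl mice. The groups overlapped, and the fold was 0.915 (0.686 to 1.22, edgeR adjusted p = 0.973). The difference between the sponge effects was 0.54 on the log2 scale (SE 0.32, edgeR adjusted p = 0.828).

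Markers of other cells also differed between sponge and GFP Ctrl mice in the miR-34 experiment. The counts of markers below, all at an unadjusted p under 0.05 in edgeR, stand beside 6.43% of all genes. Of 10 tested choroid plexus markers 9 were lower in sponge mice, 4 of them also after adjustment, and Folr1 was listed at 0 in all mice. Ttr, which encodes transthyretin and defines the choroid plexus, was at 103, 27.8 and 90.4 CPM in sponge mice against 578, 1806 and 2179. Mural cell and fibroblast markers summed to 154 to 167 against 175 to 225, with 3 of 9 lower and with Pdgfrb and Abcc9 listed at 0. Endothelial markers summed to 261 to 278 against 273 to 321, with 2 of 4 lower.

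CA2 and CA3 pyramidal cell markers, 3 of 5 lower, summed to 240 to 257 against 278 to 302. Of 7 cholinergic neuron markers only 1 was tested and 0 were lower at that limit. Their sums overlapped, at 1.19 to 2.41 against 2.18 to 4.93. Chat and Slc18a3, which define these cells, had 0 to 5 and 0 to 2 reads per mouse. Striatal markers, 3 of 7 lower, summed to 81.9 to 91.3 against 90.5 to 145.

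Some lists lay the other way. Of 8 dentate granule cell markers 2 were higher, Dsp and Lct (log2 differences 0.24 and 0.27), and 6 had a difference above 0, with sums of 641 to 714 against 548 to 714. All 7 tested oligodendrocyte markers had a difference above 0 and 0 of them passed, with sums of 537 to 672 against 518 to 612. Cortical markers had 1 of 7 higher and interneuron markers 1 of 8. Among 8 tested astrocyte markers, in contrast, 1 was lower and 7 had a difference below 0. Their sums overlapped, at 3315 to 3500 against 3450 to 3645.

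Ngfr is set beside the choroid plexus sum as a description only. With few mice per group and 35 to 65 Ngfr reads per mouse in the miR-34 experiment, no relation within a group can be read. Among the GFP-miR-34sp mice Ngfr was lowest where that sum was highest (mouse 13, 169 CPM). Among GFP Ctrl mice it was highest at the highest sum (mouse 8, 2444) and lowest at a sum of 2066 (mouse 4). The part of these cells in the Ngfr and Ntrk3 differences was not tested. Since the choroid plexus sums of the 2 groups did not overlap, sponge and tissue content cannot be told apart in the miR-34 experiment. In the miR-9 experiment 2 of 6 CA2 and CA3 markers were higher at an unadjusted edgeR p under 0.05, against 4.73% of all genes. So were 1 of 8 dentate granule cell, 1 of 7 neuronal and 1 of 8 interneuron markers. All tested dentate granule cell and neuronal markers had a difference above 0. Of 10 microglia markers 1 was lower (sums 702 to 731 against 740 to 764), and of 9 mural cell and fibroblast markers 1. No marker of the other lists passed at that limit.

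**Figure D3:**
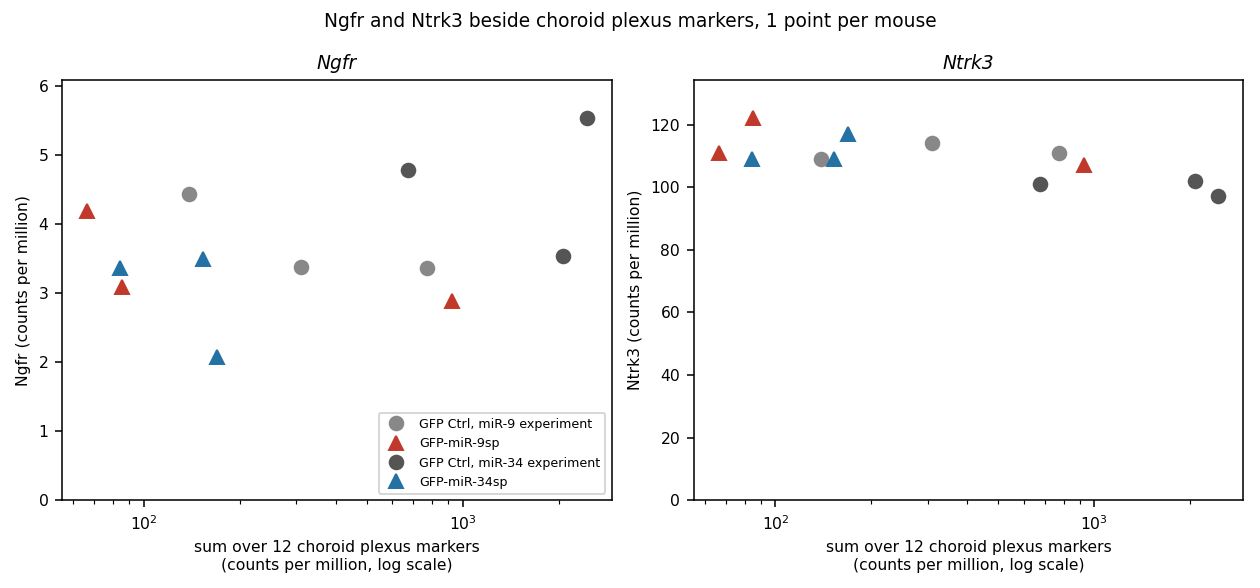
Ngfr (left) and Ntrk3 (right) in CPM on vertical axes from 0, against the sum over 12 choroid plexus markers on a horizontal log axis. Each point is 1 mouse, with circles for GFP Ctrl and triangles for sponge mice. The 3 GFP-miR-34sp mice lie between 84.4 and 169 on the marker axis and their GFP Ctrl mice between 673 and 2444.

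The Sort1 count appeared to describe a single alternative exon. NM_019972, the shorter entry, had no read in any mouse, and NM_001271599 had 21 to 73 reads per mouse. The longer entry exceeds the shorter by 99 bases, the length of the exon at chr3:108158390-108158488 (mm9, plus strand), which lies within the coding sequence and is present in 2 of 4 gene models. Its sequence is shown in capitals because the Sort1 count is inferred to come from it.
Sort1 alternative exon: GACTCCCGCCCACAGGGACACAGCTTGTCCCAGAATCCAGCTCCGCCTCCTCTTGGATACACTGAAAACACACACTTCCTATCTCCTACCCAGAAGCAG

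Sort1 reads stood at 3.61, 2.55 and 2.73 CPM in GFP-miR-9sp mice and at 2.97, 2.77 and 3.39 in GFP Ctrl. They were, in the miR-34 experiment, at 2.32, 2.16 and 2.23 in sponge mice and 2.5, 1.91 and 2.98 in GFP Ctrl. Sponge and GFP Ctrl mice overlapped in both, and the 3 GFP-miR-34sp mice lay closest together. The folds were 0.979 (95% interval 0.746 to 1.28, edgeR adjusted p = 0.994) and 0.907 (0.653 to 1.26, adjusted p = 0.952). On that inference they say nothing of sortilin RNA without the exon.

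Vgf, the neuropeptide precursor, was at 381, 320 and 306 CPM in GFP-miR-9sp mice and at 306, 299 and 318 in GFP Ctrl. The values of GFP-miR-34sp mice were 216, 259 and 237, and those of their GFP Ctrl mice 266, 229 and 236. The groups overlapped, and 1 GFP-miR-9sp mouse, 17, stood above all others. The fold was 1.09 (0.975 to 1.22, edgeR adjusted p = 0.97) in the miR-9 and 0.972 (0.877 to 1.08, adjusted p = 0.959) in the miR-34 experiment. The miR-9 log2 difference, 0.13 with all mice, was 0.19 without GFP-miR-9sp mouse 9, with an unadjusted but no adjusted p under 0.05, and 0.03 without mouse 17, which also had the highest choroid plexus sum of that experiment. Without the 2 mice with the most Ttr reads, a setting added after the data were seen, the Vgf difference was 0.01. That setting moved Sort1 from -0.03 to -0.26, Bdnf from 0.18 to 0.27 and Ntrk2 from -0.03 to -0.09. Ntrk3 went from 0.02 to 0.06 and Ngfr from -0.13 to -0.08, and no member had an adjusted p under 0.05.

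**Figure D4:**
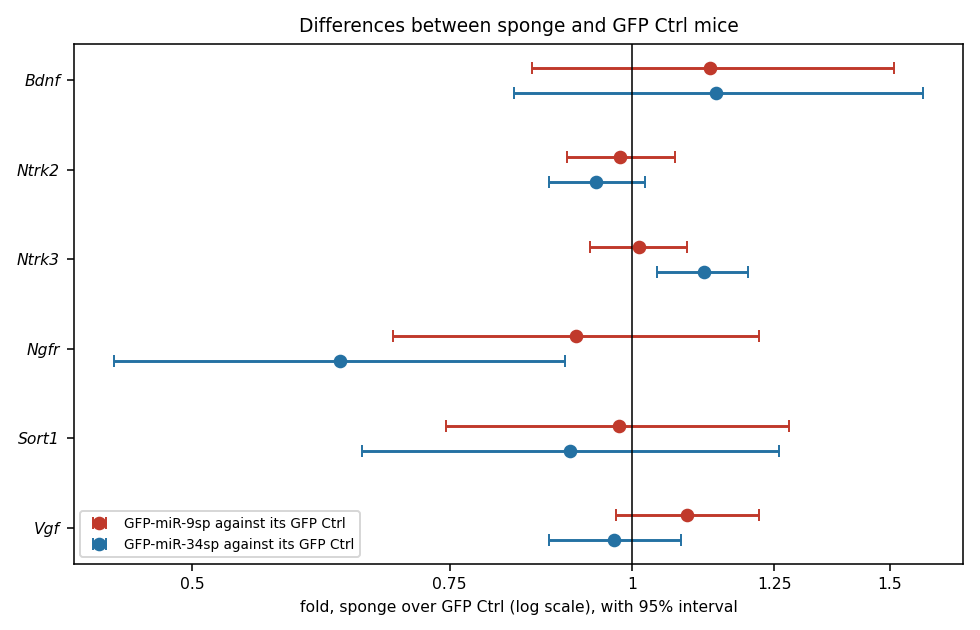
Fold of sponge over GFP Ctrl mice (horizontal log axis) with its 95% interval for the 6 tested genes, red for the miR-9 and blue for the miR-34 experiment. The intervals of Ntrk3 (1.04 to 1.2) and Ngfr (0.442 to 0.9) in the miR-34 experiment exclude 1 before adjustment, and those of the other pairs include it.

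The same 6 genes were tested for a different effect of the 2 sponges. In edgeR 0 had an adjusted p under 0.05, against 0% of 12835 genes, and 0 an unadjusted p under 0.05, against 6.1%. DESeq2 gave 0 and 0, against 5 and 504 of all genes. Among single entries, 0 of 10 tested had an unadjusted p under 0.05 in the miR-9 experiment, against 4.68% of all entries, and 2 of 9 in the miR-34 experiment, NM_182809 of Ntrk3 and NM_033217 of Ngfr, against 6.37%.

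Levels of different genes were set side by side per length, as CPM divided by the entry's length in kilobases, over all 12 mice. Vgf had the highest value, 110 ± 19.2 (SD, n = 12), followed by Ntrk2 at 61.8 ± 5.05, Ntrk3 at 30.5 ± 1.9, Ngfr at 1.08 ± 0.271, Bdnf at 0.966 ± 0.209, Sort1 at 0.386 ± 0.0744 and Ntf3 at 0.0548 ± 0.0563. Neighbours in this list had ranges over mice that did not overlap, except Ngfr (0.607 to 1.62) and Bdnf (0.625 to 1.46). The list is no order of RNA levels, since sequence that appears not to be counted stays in the lengths of Bdnf, Sort1, Ntf3, Ntrk2 and Ntrk3 and lowers their values by different amounts. Sort1 reads, inferred to come from 99 bases, were divided by the whole entry. Vgf and Ngfr, each with a single entry, can be set in order, Vgf above Ngfr.

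The genes whose pattern over the 12 mice lay closest, after each experiment's mean was removed, were named for each tested member from 12389 genes as a description. For Ntrk2 they were 9930111J21Rik1 (r = 0.97), Parp4 (0.95) and Mtarc2 (0.93), and for Ntrk3 Micu3 (0.93), Wdr26 (0.88) and Med13l (0.87). Bdnf lay closest to Bud31 and Grasp (0.94 each) and Cpsf2 (0.89), and Vgf to Mif (0.91), Gadd45b (0.9) and Rbm3 (0.88). For Ngfr they were 2310015A10Rik (0.91), Atp6v0e (0.9) and Saraf (0.89), and for Sort1 Vwf (0.92), Fbxo17 (0.91) and Ogfod3 (0.9). The mice share libraries and depth across genes, and high values are found by search among so many genes.

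Other receptors and ligands of the family did not pass the test or had few reads. Sorl1, Sorcs2, Sorcs3 and Sorcs1, sorting receptors related to sortilin, and Nradd, a p75-like protein, were tested. None of these 5 had an unadjusted p under 0.05 in edgeR in either experiment. Their folds ran from 0.858 (Sorcs1) to 1.11 (Sorl1) with the miR-9 sponge and from 0.925 (Nradd) to 1.04 (Sorcs1) with the miR-34 sponge.

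Ntf5, which encodes neurotrophin-4, the other TrkB ligand, had 2 to 11 reads per mouse and was below the count limit. In the miR-9 experiment it had 11, 11 and 10 reads in sponge and 4, 6 and 4 in GFP Ctrl mice, or 0.579 ± 0.0666 against 0.216 ± 0.0576 CPM (SD, n = 3), every sponge mouse above. In the miR-34 experiment it had 5, 2 and 4 reads in sponge and 8, 7 and 5 in GFP Ctrl mice, or 0.255 ± 0.0718 against 0.55 ± 0.11 CPM, every sponge mouse below. Fitted without a count limit, the log2 differences were 1.4 (SE 0.43, edgeR adjusted p = 0.908) and -1.04 (SE 0.56, adjusted p = 0.887).

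Beyond the family, lists of genes that process the neurotrophins, carry their signal or respond to it were examined. Over all lists, with the receptors and ligands of the preceding paragraphs but without the 7 genes, 147 genes were tested in the miR-9 experiment, of which 4 were higher and 4 lower at an unadjusted p under 0.05 (5.44%). In the miR-34 experiment 145 were tested, with 2 higher and 7 lower (6.21%). The shares of all genes in edgeR were 4.73 and 6.43%. Of the listed genes 0 had an adjusted p under 0.05 in edgeR or in DESeq2. In DESeq2 7 and 6 of them had an unadjusted p under 0.05, against 290 of 13045 and 384 of 12492 genes.

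Among 55 tested Trk adaptors and kinases, which carry the signal inward from TrkB and TrkC, 3 were higher and 1 lower in GFP-miR-9sp mice at an unadjusted p under 0.05. Map2k1, the MAP kinase kinase of the ERK cascade, was at 487 ± 29.2 against 438 ± 19.4 CPM (fold 1.11, edgeR adjusted p = 0.97). Camk2a, a calcium-dependent kinase of excitatory synapses, had a fold of 1.11, Shc1, an adaptor that binds phosphorylated Trk, a fold of 1.58 at 1.38 against 0.88 CPM, and Gab1, a docking protein, a fold of 0.893. In the miR-34 experiment 1 of 54 was higher, Ptprs, a receptor phosphatase that can bind TrkC at synapses, at 29.6 ± 2.15 against 24.3 ± 0.297 (fold 1.22, edgeR adjusted p = 0.397), and 1 was lower, Akt2 (fold 0.532 at 0.635 against 1.16 CPM).

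Of 25 tested genes of p75 signalling, 2 were lower in each experiment and none higher at that limit in edgeR. With the miR-9 sponge they were Prdm4 (fold 0.925) and Traf6 (0.923), and with the miR-34 sponge Zfp110 (0.856, edgeR adjusted p = 0.51) and Nfkb1 (0.89). Prdm4 and Zfp110 encode zinc finger proteins that bind the p75 intracellular domain, Traf6 an adaptor and Nfkb1 an NF-kappaB subunit. In the processing and transport list 1 of 15 was lower with the miR-9 sponge, Scg2 (secretogranin II, fold 0.912), and 1 of 14 with the miR-34 sponge, Plat (tissue plasminogen activator, which takes part in cleaving proBDNF, fold 0.83, edgeR adjusted p = 0.554).

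Of 17 tested transcription factors known to act on Bdnf, 1 was higher in GFP-miR-9sp mice, Rcor1, a corepressor that works with REST (fold 1.18, edgeR adjusted p = 0.97), and 0 in the miR-34 experiment. Of 30 tested activity-regulated and BDNF-responsive genes, 0 had an unadjusted p under 0.05 with the miR-9 sponge. With the miR-34 sponge the neuropeptide genes Tac1 (fold 0.772) and Penk (0.776) and the phosphatase gene Dusp5 (0.766) were lower and Sst (1.11) higher at an unadjusted p under 0.05, with adjusted p of 0.574 to 0.723. The median log2 difference of these 30 was -0.04 in each experiment, against 0 for all genes. Tac1 was also counted above among the striatal markers and Sst among the interneuron markers. Sponge and tissue content cannot be told apart in the miR-34 experiment for these genes either.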

How the data were processed

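Total RNA from hippocampal tissue of 12 mice was poly-A enriched, made into cDNA libraries and sequenced by the authors, and aligned with STAR to mm10 per the labels' processing notes, while mm9 is named in the study's methods. The authors deposited raw read counts per RefSeq entry, with each entry's length (another value, in bases). Of 32850 entries, 98.7% were joined to a gene symbol. The samples were taken as separate mice, and p-values measure the spread between them. Symbols were those of RefSeq (GRCm38.p6), and coordinates those of GENCODE on mm9.

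Counts were summed over entries per symbol. Features with a mean scaled count above 10 over the 6 mice of an experiment were tested with edgeR 4.0.16 (TMM, quasi-likelihood test, R 4.3.3), sponge against the GFP Ctrl of the same experiment, and p-values were adjusted by Benjamini-Hochberg over all features tested. Single entries were tested alike. The difference between the sponge effects was a contrast over all 12 mice. Intervals of 95% were taken from the log2 difference, its SE and the t distribution with the degrees of freedom of the edgeR test. CPM values are counts scaled by TMM library sizes within each experiment, while levels per length use total counts. The scripts were tested on simulated counts. Intervals cover the spread between mice and counting error, and the depth of 11029604 to 24428477 counts limits genes with few reads.

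The genes and lists were chosen with earlier results of these data known. Named were the 7 genes and their entries, other ligands and receptors of the family, from each other pathway list the genes with the smallest unadjusted p under 0.05 (at most 5 per experiment), and the 3 genes of highest Pearson r per member. Ngfrap1, an alias of Bex3, was not analysed here, and some genes of the lists are not reported here. Alternatives were DESeq2 1.42.0, its size factors, total counts alone, other count limits, 1 model of all mice, the entry with the highest mean count, the study's criterion (its test run with equal variances, which the methods do not state) and leaving out each mouse. One more, without the 2 mice with the most Ttr reads in the miR-9 experiment, was added after the data were seen.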

Additional observations from a re-analysis of the deposited data

Results flagged for a closer look

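Ntf5 was set apart because every GFP-miR-9sp mouse lay above and every GFP-miR-34sp mouse below its own GFP Ctrl mice in CPM. With 2 to 11 reads per mouse it was outside the main test. Fitted without a count limit, the miR-9 effect exceeded the miR-34 effect by 2.43 on the log2 scale (SE 0.68, edgeR adjusted p = 0.288), so the difference did not pass adjustment over all genes.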

How the results depend on the processing

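No paired analysis was possible because the groups compared share no mouse number. No alternative gave any of the 7 genes or their entries an adjusted p under 0.05. Of 435 alternative values of their differences, 395 kept the direction and 40 turned it, 37 of these with a mouse left out, all in differences that had not passed the test. Ntrk3 in the miR-9 experiment was 0.02 on the log2 scale, and -0.01 with total counts alone, with the entry of the highest mean count and under the study's criterion. Leaving out each mouse moved the miR-9 differences, by gene sum, from -0.08 to 0.02 (Ntrk2), -0.04 to 0.06 (Ntrk3), -0.31 to 0.01 (Ngfr, also as its entry) and -0.2 to 0.06 (Sort1, also as its entry). By entry they ran from -0.07 to 0.33 (Bdnf exon IV, NM_001048141), -0.09 to 0.02 (Ntrk2 NM_008745), -0.06 to 0.17 (Ntrk3 NM_008746) and -0.04 to 0.03 (Ntrk3 NM_182809). The miR-34 differences ran from -0.28 to 0.01 (Sort1, also as its entry), -0.11 to 0.03 (Vgf, also as its entry), -0.28 to 0.09 (Ntrk2 NM_001025074), -0.03 to 0.57 (Bdnf exon IV) and -0.15 to 0.43 (Bdnf exon VI, NM_001048142). The differences between sponge effects ran from -0.18 to 0.18 (Bdnf), -1.3e-03 to 0.11 (Ntrk2) and -0.06 to 0.25 (Sort1).

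Counts over all genes moved more. In the miR-9 experiment 0 genes were called, 2 by DESeq2, 2 without a count limit, 188 under the study's criterion, 0 to 1 with a mouse left out and 1 without the 2 mice with the most Ttr reads. By entry they were 0, 2 by DESeq2, 201 under the study's criterion and 0 to 1 with a mouse left out. In the miR-34 experiment 8 genes were called, 36 by DESeq2, 4 with its size factors, 4 with total counts alone, 81 without a count limit, 0 above a mean of 100, 0 in 1 model of all mice, 4 by the entry of the highest mean count and 250 under the study's criterion. They ran from 0 without GFP Ctrl mouse 4, or without any 1 of the GFP-miR-34sp mice, to 57 without GFP Ctrl mouse 10, and 1 was called without GFP Ctrl mouse 8. By entry they were 4, 37 by DESeq2, 8 with its size factors, 259 under the study's criterion and 0 to 60 with a mouse left out. For the difference between sponge effects they were 0, 5 by DESeq2, 4 without a count limit and 0 to 1 with a mouse left out. The cause was not tested. Total counts alone shifted the balance at an unadjusted p under 0.05 in the miR-9 experiment from 322 higher and 295 lower genes to 189 and 484, and in the difference between sponge effects from 456 and 327 to 308 and 560. Divided by the longest entry's length, the level of Ntrk2 was 49.7 in place of 61.8 and that of Ntrk3 28.5 in place of 30.5.

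Few counted reads limited Ntf3 and Ntf5, and for Ntf3 the counting of shared sequence cannot be told from depth. Of the 23 entries, 13 had a mean count of 10 or less, some of them entries with little or no sequence of their own, which the counting of shared sequence limits rather than depth alone.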
